A study of Homo sapiens with 18 samples.

Results

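The line by dexamethasone interaction asks, gene by gene, whether the response to a glucocorticoid differed between cells given extra receptor and cells given an empty vector. It is the response in GRα cells (dexamethasone minus vehicle) minus the response in control cells (dexamethasone minus vehicle), on the log2 scale, so a value of 1 means that the fold change was 2-fold larger in GRα cells. Its estimate rests on 12 of the 17 arrays with values, 3 in each of 4 groups, which were read from the sample titles. Its standard errors, intervals and p-values come from a fit that takes the spread of all 17 arrays. The measured cells were H295R, an established and steroid-secreting cell line derived from a carcinoma of the human adrenal cortex. Every line carried a stable, non-inducible pcDNA4 vector, grown under Zeocin: empty in the control cells, and encoding GRα in the others. At 70% confluence all cells were kept without serum for 24 h. The 4 groups were control cells with ethanol vehicle for 6 h, control cells with dexamethasone at 100 nM for 6 h, GRα cells with vehicle for 6 h, and GRα cells with dexamethasone at 100 nM for 6 h. A second reference, given beside some results, was the arrays of cells with RU486 (mifepristone, a receptor antagonist) at 100 nM for 6 h, 3 in control and 2 in GRα cells. Each vector was represented by 1 stable line, so receptor level and any other difference between the lines cannot be told apart. The titles name biological replicates A, B and C, and whether these were separate cultures is not stated, so p-values measure the spread between these arrays, which may be partly technical.

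The glucocorticoid receptor, encoded by NR3C1, waits in the cytoplasm bound to chaperones. On binding an agonist such as dexamethasone it enters the nucleus, where it binds DNA as a dimer at glucocorticoid response elements or joins other transcription factors, and target RNAs rise or fall. The adrenal cortex itself makes glucocorticoids, under the control of pituitary adrenocorticotropin, whose release they restrain by feedback.

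NR3C1 arrays of the lines did not overlap. In control cells its log2 signal was 7.41, 7.28 and 7.38 with vehicle and 7.40, 7.38 and 7.23 with dexamethasone. In GRα cells it was 7.98, 7.90 and 7.94 with vehicle and 8.05 ± 0.06 (SD, n = 3) with dexamethasone. The distance between the lines was 0.59 ± 0.07 (SE) in vehicle and 0.71 ± 0.07 under dexamethasone, and its interaction of 0.13 ± 0.09 was not called (limma adjusted p = 0.772). Whether this probe set reads the transgene as it reads the endogenous RNA was not tested, and protein was not measured.

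Probe sets differ in brightness, so levels of different genes are given and not ranked. Among adrenocortical defining genes, the mean log2 signal over the 12 arrays was 10.21 for CYP11A1 and 9.93 for STAR, which act at the start of steroid synthesis, 9.61 for CYP17A1 and 8.75 for the steroidogenic transcription factor gene NR5A1. HSD3B2 was at 6.31, the corticotropin receptor gene MC2R at 5.47 and the aldosterone synthase gene CYP11B2 at 5.32. The 11 leukocyte markers ran from 3.83 for PTPRC to 6.77 for TYROBP, with a median of 5.30. Detection above background was not tested. GRα vehicle replicate B stood apart: its array weight was 0.194 against 0.654 to 2.304 in the other arrays, and its mean log2 signal over histone genes was 8.34 against 7.69 and 7.70 in replicates A and C. Values without it are given beside the results that it moved most. RNA per cell was not measured, so all differences are relative to the other RNAs of a sample.

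Of 18417 genes tested, 12 (0.0652%) had an interaction at a limma adjusted p under 0.05, and all 12 estimates were positive. No negative interaction was called by limma, although 724 genes (3.93%) had a negative one at an unadjusted p under 0.05, as 637 (3.46%) had a positive one, 1361 in all where 921 are due by chance. At an adjusted p under 0.10 the count was 17 positive and 2 negative. The median interaction over all genes was 0.00, with the 1st and 99th percentiles at −0.41 and 0.38, and the median half-width of a 95% interval was 0.25. After adjustment over all genes the smallest estimate called was 0.53, for JADE1, so smaller differences in a single gene were not detected here. The called genes were ZBTB16, OR7A5, TMEM100, MAOA, RASGRF1, NNMT, SYDE2, VCL, JADE1, CSRNP1, LGR5 and GREB1L. When only the arrays of the 4 groups were fitted, the first 5 of these were called and the others were not. The largest negative estimate belonged to the spliceosomal RNA gene RNU5D-1 (−1.51 ± 0.62 SE, adjusted p = 0.61), named after its value was seen.

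Promoter sequence from RefSeq (build GRCh38.p14, 250 bases before to 50 after a start) was at hand for 7 of the called genes, in 12 entries: JADE1 with 5, CSRNP1 with 2, and OR7A5, MAOA, SYDE2, VCL and GREB1L with 1 each. The receptor's response element is built of a pair of hexamers facing each other, and both the full letters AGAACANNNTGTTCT and the single hexamer AGAACA, on either strand (TGTTCT on the other), were searched. The full letters were in 0 of 20109 entries of tested genes. The hexamer was in 2316 entries (11.5%) and in 1 of the 12 entries of called genes, at base 1 of a CSRNP1 window, 250 bases before the start. That window is shown with the hexamer in capitals, beside the window of OR7A5, which had the largest interaction among called genes with an entry and holds no hexamer. CSRNP1 lies at chr3:39154592-39154891 on the minus strand and OR7A5 at chr19:14835136-14835435 on the minus strand, both written 5′ to 3′ along the gene. A match is a description of letters and no measure of binding, and elements outside these windows were not searched.
CSRNP1: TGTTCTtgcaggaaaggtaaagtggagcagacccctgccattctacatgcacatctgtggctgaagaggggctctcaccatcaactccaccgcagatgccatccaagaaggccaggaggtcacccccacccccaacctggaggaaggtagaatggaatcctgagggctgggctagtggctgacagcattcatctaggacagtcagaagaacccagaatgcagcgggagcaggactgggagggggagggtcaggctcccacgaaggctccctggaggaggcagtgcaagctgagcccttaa
OR7A5: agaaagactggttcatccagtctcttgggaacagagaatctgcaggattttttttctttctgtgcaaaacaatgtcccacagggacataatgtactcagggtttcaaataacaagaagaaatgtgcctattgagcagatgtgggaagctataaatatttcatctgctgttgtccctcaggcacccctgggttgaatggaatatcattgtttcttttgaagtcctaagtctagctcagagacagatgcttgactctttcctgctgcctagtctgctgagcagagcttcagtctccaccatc

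The 12 called genes reached their interaction from different starting levels. In vehicle, the arrays of the lines overlapped for 5 of them (ZBTB16, OR7A5, TMEM100, RASGRF1 and NNMT). GRα cells lay below control cells for 6 (MAOA, SYDE2, VCL, JADE1, CSRNP1 and LGR5), where 21.7% of all genes were lower without overlap, and above them for GREB1L, where 18.8% were higher without overlap. Under dexamethasone GRα cells lay above control cells without overlap for 11, all but MAOA, against 21.1% of all genes. Since the interaction uses these same arrays, the counts describe the called genes and test nothing.

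**Figure D1:**
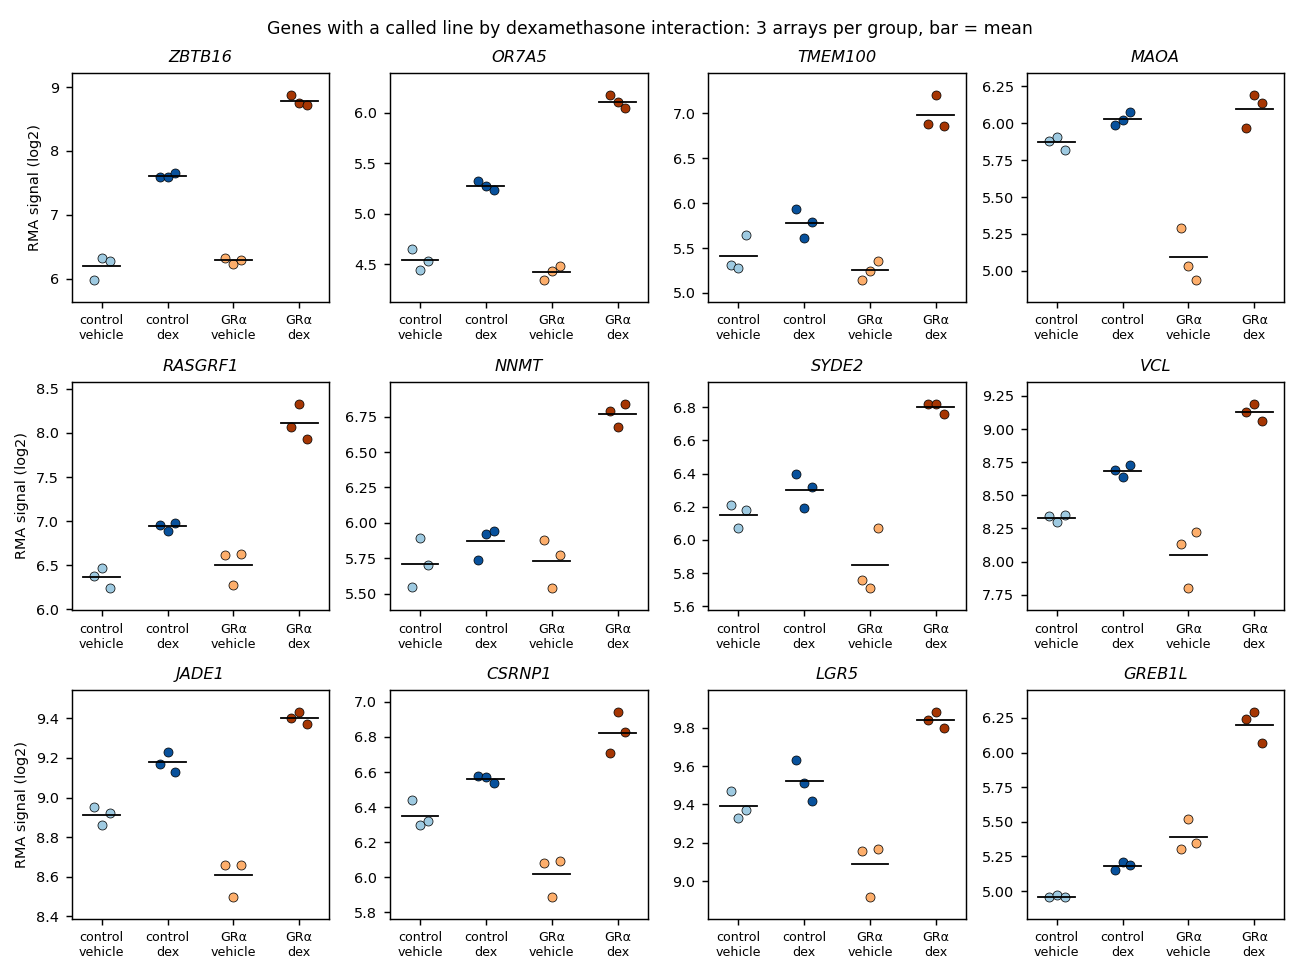
Log2 RMA signal (vertical axis, its range set per panel) of each of the 12 called genes in the 4 groups, with 1 point per array and a bar at the group mean. GRα arrays with dexamethasone lie above GRα arrays with vehicle in all 12 panels, while control arrays with and without dexamethasone overlap in 4.

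Among the 5 genes with overlapping starting levels, ZBTB16, also called PLZF, which encodes a DNA-binding repressor and is a known glucocorticoid target, had the smallest adjusted p. Its control arrays read 5.99, 6.32 and 6.28 with vehicle and 7.59, 7.60 and 7.66 with dexamethasone. Its GRα arrays read 6.33, 6.24 and 6.29 with vehicle and 8.87, 8.75 and 8.72 with dexamethasone. The treated arrays of the lines were thus separate and the vehicle arrays were not. ZBTB16 rose 2.67-fold in control cells (limma adjusted p = 5.88e-08) and 5.63-fold in GRα cells (adjusted p = 1.17e-11). The difference between these responses was 1.07 ± 0.12 on the log2 scale (95% interval 0.82 to 1.33, adjusted p = 0.00153).

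OR7A5, a member of the OR7 family of olfactory receptors, likewise had overlapping lines in vehicle and separate ones under dexamethasone. With vehicle it read 4.65, 4.44 and 4.53 in control cells and 4.35, 4.43 and 4.48 in GRα cells. With dexamethasone it read 5.32, 5.27 and 5.23 in control cells and 6.17, 6.10 and 6.04 in GRα cells. It rose 1.66-fold in control and 3.21-fold in GRα cells, an interaction of 0.95 ± 0.11 (0.71 to 1.19, limma adjusted p = 0.0022). Its signals were low, beside a median level of 6.86 over all genes, and detection above background was not tested. Cross-hybridisation within this family was not tested either. RASGRF1, an exchange factor that loads Ras with GTP, was the third gene called for dexamethasone in both lines. Its control arrays went from 6.38, 6.47 and 6.24 to 6.95, 6.89 and 6.98, and its GRα arrays from 6.61, 6.27 and 6.63 to 8.07, 8.33 and 7.93. The rise was 1.49-fold in control and 3.04-fold in GRα cells, an interaction of 1.03 ± 0.14 (0.73 to 1.33, adjusted p = 0.00538). It was the only called gene with a further probe set, which gave 0.66.

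TMEM100, a membrane protein gene known downstream of BMP signalling in blood vessels, had the largest interaction of all genes. Control cells read 5.31, 5.28 and 5.65 with vehicle and 5.94, 5.61 and 5.79 with dexamethasone, which overlap. GRα cells read 5.15, 5.25 and 5.36 with vehicle and 6.88, 7.20 and 6.86 with dexamethasone. The gene rose 3.30-fold in GRα cells, while the control change of 1.29-fold was not called (limma adjusted p = 0.673). Its interaction was 1.35 ± 0.18 (0.97 to 1.74, adjusted p = 0.00538). NNMT, which encodes an enzyme that methylates nicotinamide, gave control arrays of 5.55, 5.89 and 5.70 with vehicle and 5.74, 5.92 and 5.94 with dexamethasone. Its GRα arrays gave 5.88, 5.54 and 5.77 before and 6.79, 6.68 and 6.84 after treatment. Only the treated GRα arrays stood apart from the other 3 groups, with an interaction of 0.88 ± 0.13 (0.60 to 1.16, adjusted p = 0.0115). In the RefSeq gene order ZBTB16 and NNMT are neighbouring protein-coding genes on chromosome 11, with 0 others between them. OR7A5 and OR7C1 are neighbours on chromosome 19 in the same way, and OR7C1 had an interaction of 0.71 ± 0.20 that was not called (adjusted p = 0.383).

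The 6 genes that started lower in GRα cells ended level with or above control cells. MAOA, the gene of monoamine oxidase A, which breaks down serotonin and noradrenaline, is the one that ended level. Control cells read 5.88, 5.91 and 5.82 with vehicle and 5.99, 6.02 and 6.08 with dexamethasone, while GRα cells read 5.29, 5.03 and 4.94 with vehicle and 5.97, 6.19 and 6.14 with dexamethasone. GRα cells were thus lower by 0.78 ± 0.08 in vehicle, and the distance under dexamethasone was 0.07 ± 0.08. MAOA rose 2.02-fold in GRα cells, while the control change of 1.12-fold was not called (limma adjusted p = 0.9995). The interaction was 0.85 ± 0.12 (0.60 to 1.09, adjusted p = 0.00538).

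For SYDE2, VCL, JADE1, CSRNP1 and LGR5 the order of the lines turned over. SYDE2 read 6.21, 6.07 and 6.18 in control and 5.76, 5.71 and 6.07 in GRα cells with vehicle, so that its nearest arrays met at 6.07. With dexamethasone it read 6.40, 6.19 and 6.32 in control and 6.82, 6.82 and 6.76 in GRα cells, an interaction of 0.81 ± 0.12 (limma adjusted p = 0.0159). VCL, the gene of vinculin, which ties actin filaments to adhesion sites, read 8.34, 8.30 and 8.35 in control and 8.13, 7.80 and 8.22 in GRα cells with vehicle. With dexamethasone VCL read 8.69, 8.64 and 8.73 in control and 9.13, 9.19 and 9.06 in GRα cells. No VCL array of treated cells fell within the range of untreated cells of the same line, and the interaction was 0.72 ± 0.12 (adjusted p = 0.0222).

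JADE1 encodes a scaffold of the HBO1 histone acetyltransferase complex. It went from 8.95, 8.86 and 8.92 to 9.17, 9.23 and 9.13 in control cells and from 8.66, 8.50 and 8.66 to 9.40, 9.43 and 9.37 in GRα cells, an interaction of 0.53 ± 0.09 (limma adjusted p = 0.0222). CSRNP1, a nuclear protein gene first described as induced by AXIN1, went from 6.44, 6.30 and 6.32 to 6.58, 6.57 and 6.54 in control cells and from 6.08, 5.89 and 6.09 to 6.71, 6.94 and 6.83 in GRα cells. Both genes were lower in GRα cells before and higher after treatment, and the CSRNP1 interaction was 0.59 ± 0.10 (adjusted p = 0.0287). LGR5, the gene of a receptor for R-spondins, which strengthen Wnt signals, read 9.47, 9.33 and 9.37 with vehicle and 9.63, 9.51 and 9.42 with dexamethasone in control cells. In GRα cells LGR5 read 9.16, 8.92 and 9.17 with vehicle and 9.84, 9.88 and 9.80 with dexamethasone. Its control groups overlapped and its GRα groups did not, and the interaction was 0.62 ± 0.11 (adjusted p = 0.0414).

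GREB1L, a relative of the estrogen-induced gene GREB1, was the called gene already higher in GRα cells. It read 4.96, 4.97 and 4.96 with vehicle and 5.15, 5.21 and 5.19 with dexamethasone in control cells, and 5.30, 5.52 and 5.35 and then 6.24, 6.29 and 6.07 in GRα cells. The distance between the lines went from 0.43 ± 0.07 to 1.02 ± 0.07 (interaction 0.59 ± 0.10, limma adjusted p = 0.0414). GREB1 itself had an interaction of 0.58 ± 0.13 that was not called (adjusted p = 0.163), and it rose 1.68-fold in GRα cells, with a control change of 1.12-fold that was not called.

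All 12 genes were called for dexamethasone in GRα cells, where 372 of 18417 genes (2.02%) were, 250 higher (1.36%) and 122 lower (0.662%), and 3 of them (ZBTB16, OR7A5 and RASGRF1) in control cells, where 48 (0.261%) were, 39 higher (0.212%) and 9 lower (0.0489%). Single arrays moved these totals: the control count was 17 to 23 without any 1 of its own arrays and 82 without GRα vehicle B, and the GRα count ran from 200 (without GRα dexamethasone B) to 601 (without GRα vehicle C). Treated and untreated arrays did not overlap in 12 of 12 genes in GRα cells, where 6.67% of all genes were higher without overlap, and in 8 of 12 in control cells, where 5.04% were. Both arms form the interaction, so these counts are no separate support for it. The calls depended on single arrays to different degrees. In 12 fits that each left out 1 array, ZBTB16, OR7A5, TMEM100, MAOA, RASGRF1 and NNMT were called every time, with NNMT reaching an adjusted p of 0.0431 at most. SYDE2 and JADE1 were called in 5 of the 12, VCL and CSRNP1 in 4, and LGR5 and GREB1L in 2, with adjusted p-values up to 0.0765, 0.108, 0.101, 0.124, 0.183 and 0.185 in that order. LGR5 was called only without control dexamethasone A or GRα vehicle C, and GREB1L only without GRα vehicle B or GRα dexamethasone C. The total ranged from 6 genes (without the control arrays A or C of vehicle or B or C of dexamethasone, or without GRα dexamethasone B) to 15 (without GRα vehicle C), and was 7 without GRα dexamethasone A.

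**Figure D2:**
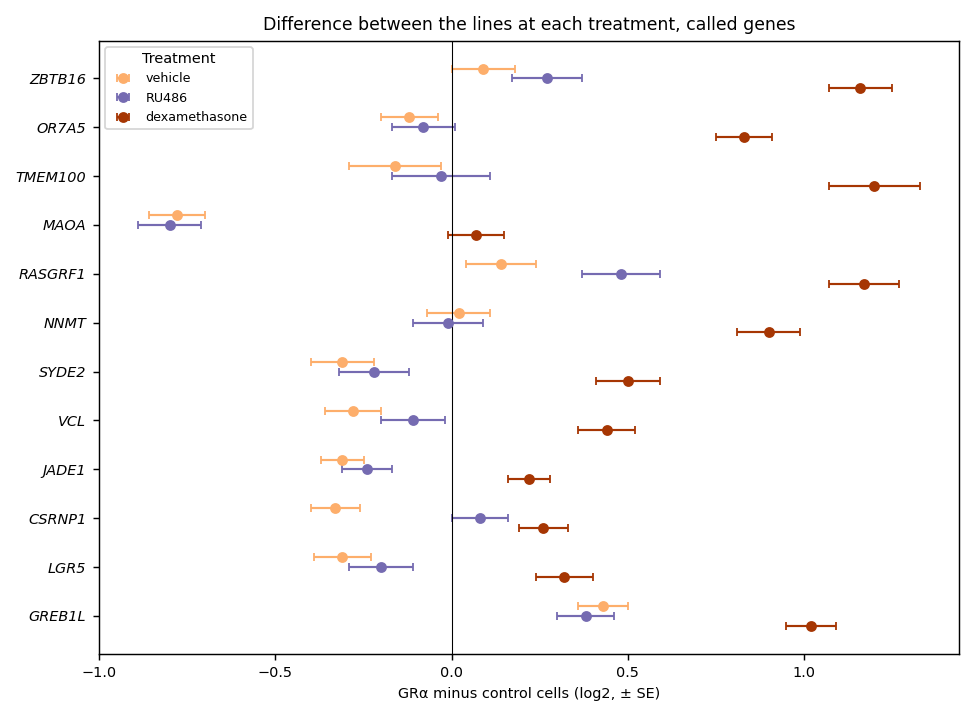
Mean log2 signal of GRα minus control cells (horizontal axis, bars are ± SE from the limma fit) for the 12 called genes with vehicle, dexamethasone or RU486. The dexamethasone points lie to the right of the vehicle points for every gene, and the RU486 points lie near the vehicle points for most, with CSRNP1 (0.08 against −0.33) and RASGRF1 (0.48 against 0.14) apart.

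With the RU486 arrays as reference in place of vehicle, the contrast called 5 genes (0.0271%), and all 5 were among the 12: ZBTB16 (0.90 ± 0.13), OR7A5 (0.91 ± 0.12), MAOA (0.87 ± 0.12), NNMT (0.91 ± 0.14) and TMEM100 (1.22 ± 0.19), with limma adjusted p-values of 0.0133 to 0.0284. Because both contrasts share their dexamethasone arrays, the second is not independent of the first. The other 7 genes kept a positive estimate. GREB1L (0.64 ± 0.11, adjusted p = 0.0686), SYDE2 (0.72, adjusted p = 0.102) and JADE1 (0.47, adjusted p = 0.134) missed the threshold. RASGRF1 (0.68), VCL (0.55) and LGR5 (0.52) had adjusted p-values of 0.285 to 0.289. CSRNP1 moved most, to 0.18 ± 0.11 (adjusted p = 1). Its control arrays with RU486 read 6.24, 6.23 and 6.19 and its GRα arrays 6.29 and 6.31, so the lines, which differed by 0.33 in vehicle, were 0.08 ± 0.08 apart with RU486. MAOA kept its distance, with 5.93, 5.89 and 5.82 in control and 5.13 and 5.02 in GRα cells. The contrast called 0 genes by limma without control dexamethasone B, control RU486 A or GRα RU486 B, and 2 without control RU486 C or GRα dexamethasone A.

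Other positive interactions lay just outside the threshold. IL1R1, the signalling receptor of interleukin-1, read 5.92, 5.75 and 5.67 with vehicle and 5.77, 5.85 and 5.84 with dexamethasone in control cells. In GRα cells it read 7.65, 7.35 and 7.83 with vehicle and 8.54, 8.56 and 8.39 with dexamethasone. Its control groups overlapped and its GRα groups did not (interaction 0.85 ± 0.15, limma adjusted p = 0.0519, or 0.012 without GRα vehicle C). Of the 12 fits that each left out 1 array, only that 1 called IL1R1, and its limma adjusted p reached 0.204 in the others. The protein kinase C gene PRKCH followed (0.77 ± 0.14, adjusted p = 0.0609), and ERRFI1, which encodes a feedback inhibitor of the EGF receptor, had 0.46 ± 0.09 (adjusted p = 0.0675). KIT, the gene of the stem cell factor receptor, had 0.45 ± 0.09 (adjusted p = 0.0914). CNST, which encodes consortin, a protein of connexin transport, was the gene of this set with far lower levels in GRα cells. Its control arrays went from 8.07, 7.97 and 8.02 to 8.45, 8.48 and 8.44, and its GRα arrays from 6.88, 7.02 and 6.93 to 7.85, 7.92 and 7.86. CNST rose 1.35-fold in control and 1.91-fold in GRα cells (interaction 0.50 ± 0.09, adjusted p = 0.0609, or 0.0356 without GRα vehicle B). It too was called in only 1 of the 12 fits, with a limma adjusted p of up to 0.252 in the others. The next were ZNF189 (0.41), STOX1 (0.65), MEIS1 (0.42) and RAP1GAP (0.50), each with an adjusted p of 0.103, and the pseudogene RPS14P3 (0.59, adjusted p = 0.105). RAP1GAP differed from the others in its arms, 0.16 ± 0.07 in GRα and −0.34 ± 0.07 in control cells, of which neither was called (adjusted p = 0.30 and 0.0762).

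Among negative interactions the lowest p-values belonged to ACTL9, an actin-like gene, and UNC45B, a myosin chaperone gene of muscle, both at −0.59 ± 0.11 (limma adjusted p = 0.0675). ACTL9 control arrays read 6.39, 6.58 and 6.50 with vehicle and 6.57, 6.65 and 6.50 with dexamethasone, and its GRα arrays 6.82, 6.95 and 6.69 and then 6.39, 6.17 and 6.39. GRα cells thus started above and ended below control cells. With array weights both ACTL9 and UNC45B passed the threshold (adjusted p = 0.0356 each), as did the receptor tyrosine kinase gene ERBB4 (adjusted p = 0.0177, against −0.55 ± 0.11 and 0.103 without weights). ACTL9 also passed after a further quantile normalization (adjusted p = 0.0443), without the dimmest 25% of genes (0.0402) and without GRα vehicle C (0.0334), UNC45B without GRα dexamethasone C (0.0461), and ERBB4 without GRα vehicle B (0.0235). Of the 12 fits that each left out 1 array, ACTL9 and ERBB4 were called in 1 each, with limma adjusted p-values up to 0.254 and 0.335. When only the groups compared were fitted, the limma adjusted p was 0.246 for ACTL9, 0.18 for UNC45B and 0.265 for ERBB4. ACTN3 (−0.62), the sterol acyltransferase gene SOAT2 (−0.39), the snRNA gene RNVU1-1 (−0.67), ELFN2 (−0.55), CCDC185 (−0.38), CLRN2 (−0.55) and LINC00336 (−0.56) had adjusted p-values of 0.103 to 0.216. GRAP, an adaptor of receptor tyrosine kinases, changed by −0.88 ± 0.14 in GRα cells (called) and −0.04 ± 0.14 in control cells, but the difference of −0.83 ± 0.20 was not called (adjusted p = 0.242).

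The interaction was also read over genes chosen by the mean dexamethasone effect of both lines, a set that holds the 12 called genes. In groups of equal size and spread this mean is independent of the difference. It called 350 genes (1.9%), 231 rises (1.25%) and 119 falls (0.646%). Of the 231 rises, 208 (90.0%) had a larger rise in GRα cells, against 9207 of 18417 genes (49.99%) with a positive interaction overall. Their median response was 0.43 in GRα and 0.25 in control cells, the median ratio of the log2 responses was 1.76, and the median interaction was 0.19 (quartiles 0.09 and 0.33). Without the 12 called genes, 196 of 219 rises (89.5%) had the larger rise in GRα cells and the median interaction was 0.18. Of the falls, 93 of 119 (78.2%) were deeper in GRα cells, with a median response of −0.30 against −0.20 and a median interaction of −0.11. At an unadjusted p under 0.05, 95 rises had an interaction in the direction of their response and 3 against it, and of the falls 25 and 1. Of the 231 rises 187 were called in GRα cells and 38 in control cells, and of the 119 falls 71 and 9. Genes chosen in control cells gave other shares: 30 of 39 rises (76.9%, median ratio 1.31, median interaction 0.14) were larger in GRα cells, but only 3 of 9 falls (33.3%, median ratio 0.824, median interaction 0.08) were deeper. The control response enters the interaction with a minus sign, so this last choice is not independent of it. The groups did not spread alike. The median within-group SD was 0.081 in both control groups, 0.119 in GRα vehicle and 0.086 in GRα dexamethasone, so the mean and the difference were not fully independent. With a wider spread in GRα cells, choice by the mean favours genes with a larger response there, to an extent that was not tested. Without GRα vehicle B the counts were 192 of 225 rises (85.3%, median 0.16) and 147 of 175 falls (84%, median −0.10). The groups of that fit were of unequal size, so the mean and the difference were not fully independent there either.

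**Figure D3:**
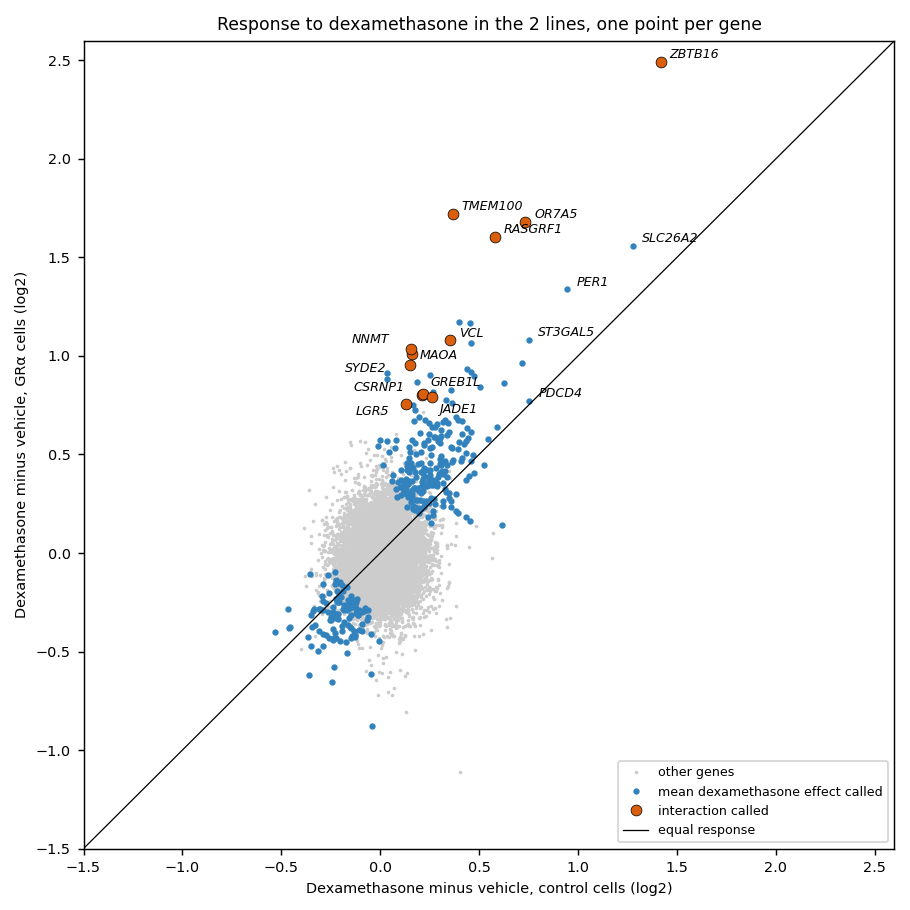
Dexamethasone minus vehicle (log2) in GRα cells (vertical axis) against control cells (horizontal axis), 1 point per gene, with the line of equal response. The 12 genes called for the interaction lie above the line, and of the 231 rises called for the mean effect 208 do so.

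The 40 largest mean rises all had a larger estimate in GRα cells. The 95% interval of the interaction lay above 0 for 30 of them and included 0 for the other 10. SLC26A2, a sulfate transporter gene, had the largest mean rise after ZBTB16. It went from 7.56, 7.37 and 7.60 to 8.89, 8.79 and 8.68 in control cells and from 7.42, 7.42 and 7.45 to 8.99, 9.02 and 8.96 in GRα cells. The treated arrays of GRα cells lay above those of control cells without overlap, and the rise was 2.43-fold in control and 2.95-fold in GRα cells. Its interaction was 0.28 (0.08 to 0.49, limma adjusted p = 0.507).

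PER1, a repressor of the circadian clock and a known receptor target, went from 6.87, 6.84 and 6.95 to 7.82, 7.93 and 7.74 in control cells and from 6.89, 6.73 and 6.75 to 8.14, 8.20 and 8.05 in GRα cells. It rose 1.93-fold and 2.53-fold, an interaction of 0.39 (0.18 to 0.60, limma adjusted p = 0.268). PDCD4, an inhibitor of translation initiation, had the closest match of the 15 largest rises, 1.69-fold in control and 1.71-fold in GRα cells. Its interaction was 0.02, and the interval of −0.20 to 0.24 leaves room for a difference of either sign. The ganglioside synthase gene ST3GAL5 (0.33, 0.05 to 0.61), the interleukin-1 receptor accessory gene IL1RAP (0.25, −0.03 to 0.52) and TSPYL2 (0.23, 0.05 to 0.42) were called for dexamethasone in both lines and not for the interaction. FRY rose 2.09-fold in GRα cells, and neither its control change of 1.38-fold nor its interaction of 0.60 ± 0.15 (adjusted p = 0.268) was called.

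**Figure D4:**
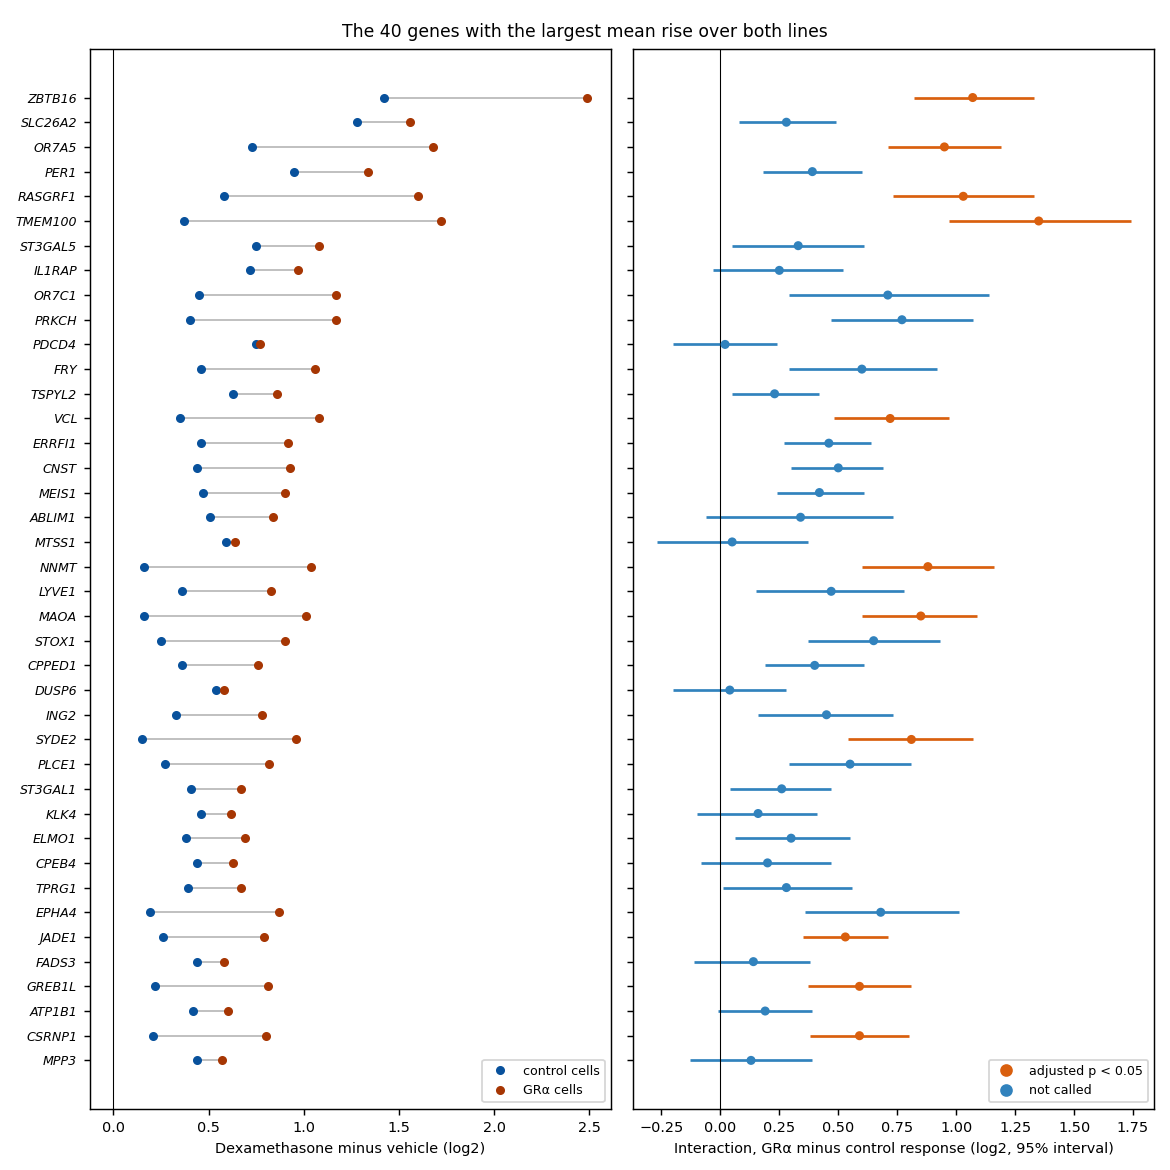
The 40 largest mean rises under dexamethasone: dexamethasone minus vehicle (log2) in each line on the left, and the interaction with its 95% interval on the right. Every GRα point lies to the right of the control point, and the called genes are mixed in size with others such as SLC26A2 and PER1, which are not called.

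Among the 10 largest mean falls, the lines were close for several genes. MYB, a transcription factor gene of proliferating cells, fell in both lines, by 0.36 ± 0.07 in control and 0.43 ± 0.07 in GRα cells (interaction −0.06, 95% interval −0.26 to 0.13). The nuclear receptor gene NR4A3 fell by 0.46 ± 0.09 and 0.38 ± 0.09 (0.08, −0.19 to 0.35), the potassium channel gene KCNH5 by 0.45 ± 0.07 and 0.37 ± 0.07 (0.08, −0.14 to 0.30) and RANBP3L by 0.53 ± 0.08 and 0.40 ± 0.08 (0.13, −0.10 to 0.36). PHLDA1 also fell in both, by 0.31 ± 0.06 and 0.50 ± 0.06 (−0.18, −0.36 to 0.00). The serine protease gene PRSS35 (−0.35), the BMP target gene ID3 (−0.26) and OR7D4 (−0.41) had called falls in GRα cells alone and interactions that were not called, and KRT23 (−0.12) was called in neither line.

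Known receptor targets and their partners were read as lists. These lists were chosen with earlier results of these data known, so their counts and shares describe them and test nothing. Of 56 measured glucocorticoid-induced genes, 2 had a called interaction (ZBTB16 and MAOA) and the median was 0.03, against 0.00 over all genes. In this list 10 genes rose with dexamethasone in GRα cells, where 1.36% of all genes did, and 4 in control cells, where 0.212% did. TSC22D3, an anti-inflammatory target also called GILZ, rose 1.58-fold in GRα cells with an interaction of 0.41 ± 0.16 (limma adjusted p = 0.586). The kinase gene SGK1 (0.36 ± 0.10), the phosphatase gene DUSP1 (−0.20 ± 0.11) and the transcription factor gene KLF9 (−0.26 ± 0.10) were called in neither line nor for the interaction. Of 28 glucocorticoid-repressed genes none had a called interaction by limma. At an unadjusted p under 0.05, 1 was positive and 4 were negative, against 3.46% and 3.93% of all genes. The list median was −0.09, or −0.02 without GRα vehicle B. The chemokine gene CCL20 (−0.55 ± 0.16, adjusted p = 0.415) and the cytokine genes IL6 (−0.43 ± 0.14) and TNF (−0.30 ± 0.11) were the most negative by p in that list.

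The machinery of the receptor gave no called interaction by limma: 0 of 16 receptor and chaperone genes (median 0.03, 0 at an unadjusted p under 0.05) and 0 of 24 coregulators (median 0.11, 1 at an unadjusted p under 0.05). The coregulator median was 0.01 without GRα vehicle B. NR3C2, the mineralocorticoid receptor gene, had 0.27 ± 0.14 and the acetyltransferase gene EP300 0.29 ± 0.15. Of 19 clock genes 0 were called (1 at an unadjusted p under 0.05, PER1), with a median of 0.03. Over all genes 3.46% were positive and 3.93% negative at that level.

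None of 20 steroidogenic genes had a called interaction by limma, and 3 had a positive one at an unadjusted p under 0.05, against 3.46% of all genes. These were NR5A1 (0.32 ± 0.11, adjusted p = 0.537), the P450 reductase gene POR (0.25 ± 0.09) and the cytochrome b5 gene CYB5A (0.25 ± 0.11). NR5A1 rose 1.58-fold in GRα cells, and its control change of 1.27-fold was not called. The cholesterol transport gene STAR had 0.10 ± 0.10. The enzyme genes showed small estimates, with CYP11A1 at −0.02 ± 0.11, CYP17A1 at −0.02 ± 0.11, CYP11B1 at −0.09 ± 0.17, CYP11B2 at 0.01 ± 0.15 and HSD3B2 at −0.09 ± 0.21. MC2R was at 0.01 ± 0.20. The interval of HSD3B2 ran from −0.54 to 0.36, wider than that of CYP17A1 (−0.25 to 0.20).

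The remaining functional lists were drawn up around genes that earlier results of these data had shown to respond, so that all 12 called genes fall in some list and the called counts carry no weight of their own. The other members were listed with those results known too, so their counts and medians describe these lists and test nothing. These counts and medians include the called genes, and 49.99% of all genes had a positive estimate. Of 24 BMP signalling genes only TMEM100 was called, and the median was −0.09, with 3 called falls in GRα cells under dexamethasone, where 0.662% of all genes fell. BMP7 (−0.38 ± 0.18), SMAD6 (−0.24 ± 0.10) and ID2 (−0.23 ± 0.09) were not called for the interaction. Of 21 Wnt feedback and target genes only LGR5 was called, with 12 positive estimates and a median of 0.02. Without GRα vehicle B none was called by limma, 7 were positive and the median was −0.05. The related receptor genes LGR4 (0.01 ± 0.10) and LGR6 (−0.17 ± 0.18) were not called, nor were the pathway inhibitor genes ZNRF3 (0.20 ± 0.14), APCDD1 (0.18 ± 0.09) and NKD2 (−0.34 ± 0.13). Of 17 actin and adhesion linkers VCL was called, and its binding partner gene TLN1 (0.22 ± 0.14) was not.

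In a list of 12 monoamine enzymes and transporters MAOA was called, and the median was −0.03. NNMT, also called, stood in that list, though its enzyme methylates nicotinamide, which is not a monoamine. PNMT, the enzyme gene that turns noradrenaline into adrenaline, fell by 0.40 ± 0.07 in GRα cells and had an interaction of −0.30 ± 0.09 (limma adjusted p = 0.437). The vesicle transporter gene SLC18A2 had −0.26 ± 0.11. Among 11 OR7 olfactory receptors OR7A5 was called, and OR7C1 (0.71 ± 0.20), OR7D4 (−0.41 ± 0.20) and OR7E24 (−0.25 ± 0.16) were not, with a list median of −0.02. The sequences of this family are alike, so cross-hybridisation between its probe sets cannot be told apart from expression. In the families and partners of JADE, CSRNP and GREB1 proteins 3 of 14 were called. With the called genes included, 12 of 14 estimates were positive, against 49.99% of all genes, and the median was 0.14, or 0.05 without GRα vehicle B. Sulfate handling genes (0 of 13 by limma, 2 positive at an unadjusted p under 0.05, median −0.02), glycosphingolipid synthesis genes (0 of 14, 1 positive, median 0.03) and housekeeping genes (0 of 11, 0 at an unadjusted p under 0.05, median −0.02) had no called member. At that level 3.46% of all genes were positive.

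Markers of cell types were read beside these results, and their part in them was not tested. None of 12 adrenocortical, 9 chromaffin, 10 fibroblast, 10 endothelial, 11 leukocyte and 10 epithelial markers had a called interaction by limma, and 1, 2, 1, 0, 1 and 0 of them passed an unadjusted p under 0.05. Among all genes 3.46% passed it with a positive and 3.93% with a negative estimate. The leukocyte median was −0.17 and the endothelial median −0.15 (−0.15 and −0.13 without GRα vehicle B), with median levels of 5.30 and 5.07. The mean leukocyte level per array ran from 5.13 to 5.29 in control vehicle, 5.27 to 5.32 in control dexamethasone, 5.29 to 5.39 in GRα vehicle and 5.23 to 5.29 in GRα dexamethasone. The mean chromaffin level was 5.64 to 5.70 in control vehicle and 6.06 to 6.31 in GRα vehicle, with 5.66 to 5.69 and 6.00 to 6.11 under dexamethasone. The mean adrenocortical level was 7.82 to 7.85 and 7.40 to 7.56 in vehicle, and 7.84 to 7.88 and 7.51 to 7.57 under dexamethasone. Without GRα vehicle B the adrenocortical list went from 6 to 3 positive interactions of 12 and its median from 0.00 to −0.06. The fibroblast marker PDGFRA had 0.59 ± 0.21 (adjusted p = 0.54).

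Replication-dependent histone genes had the most one-sided list: 5 of 57 estimates were positive, the median was −0.24 and the range −0.74 to 0.32. By limma 0 were called, and 5, all negative, passed an unadjusted p under 0.05, against 3.93% of all genes. The median response of the list was −0.26 in GRα and 0.00 in control cells. Its size depended on 1 array. Without GRα vehicle B, which had a higher histone signal than its replicates, 17 of 57 were positive and the median was −0.05. In that fit 8949 of 18417 genes were positive and the median over all genes was 0.00, so the list stayed one-sided to a smaller degree. H4C16 was the member with the lowest p (−0.37 ± 0.12, limma adjusted p = 0.496). H4C14 and H4C15 gave the same estimate (0.06 ± 0.14). Cross-hybridisation within the list was not tested, so its members may not all be separate readings.

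Of the 48 genes called for dexamethasone in control cells, 15 (9 of 39 rises and 6 of 9 falls) had an interaction of the opposite sign, that is, a smaller response in GRα cells or one of the other sign. The control response enters the interaction with a minus sign, so choice by that response favours such genes and the counts test nothing. None of those named here had a called interaction. COLCA1, a gene named for its association with colorectal cancer, went from 6.93, 6.69 and 6.98 to 7.48, 7.44 and 7.37 in control cells. In GRα cells it read 6.33, 6.14 and 6.18 with vehicle and 6.21, 5.94 and 6.43 with dexamethasone, which overlap. The control rise was 1.48-fold, the GRα value 0.98-fold, and the difference −0.59 ± 0.15 (limma adjusted p = 0.268). The carboxylesterase gene CES1 rose 1.53-fold in control cells against 1.10-fold, not called, in GRα cells (−0.47 ± 0.17, adjusted p = 0.534). FDX1, the gene of the ferredoxin that passes electrons to mitochondrial steroid hydroxylases, rose 1.30-fold in control cells with 1.16-fold, not called, in GRα cells (−0.17 ± 0.10). SAMD3 (−0.29 ± 0.13) and INPP4A (−0.19 ± 0.09) were of the same kind. STK10 and CCND2, the cyclin D2 gene, fell in control cells by 0.35 ± 0.07 and 0.29 ± 0.06 and had positive interactions of 0.25 ± 0.09 and 0.13 ± 0.08.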

How the data were processed

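Expression was measured on 18 whole-transcript arrays, of which 17 hold values; GRα cells with RU486, replicate A, failed quality control per the labels. The values are log2 signals that the authors deposited in 1 table of 29153 probe sets, made with RMA (background correction, quantile normalization, probe summary) and limma per the submitters' processing notes; their versions and the build: not given in the sources used here. That quantile step hides a shift of most RNAs one way. Deposited log2 values ran from 2.07 to 14.15, array medians from 6.28 to 6.35. No arrays were identical, and 3 or 2 arrays a group limit the precision.

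Probe sets with 1 symbol in the platform annotation (19460; 1754 had several and 7939 none) were updated through RefSeq (19429 matched). The probe set of highest mean stood for each of 18417 genes. One fit in limma 3.58.1 (R 4.3.3), with a mean per group over all 17 arrays, gave 5 contrasts: the interaction, dexamethasone in each line, their mean, and the interaction against RU486. Tests were two-sided, with Benjamini-Hochberg adjustment over all genes and calls under 0.05. Errors are standard errors unless marked SD. The fit was tested on simulated data.

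Members and lists were chosen with earlier results of these data known. Named genes were all called interactions, the next 10 each way by p, a panel of 17 targets and steroidogenic genes, up to 4 of each list by p, the 15 largest rises and 10 largest falls of the mean effect, and up to 8 control responders with opposite interaction; some are left out for length, and 1 list is not reported here. FKBP5, CYP21A2, NR0B1 and FDXR had no probe set of their own and are not analysed here. Alternatives were normalization, filter, scale, eBayes options, array weights, gene unit, samples fitted, replicate block, threshold and leaving out each array.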

Additional observations from a re-analysis of the deposited data

Results flagged for a closer look

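The response to dexamethasone differed between GRα and control cells, by the limma test of the difference itself, in 12 genes. The differences, GRα minus control response on the log2 scale, were 1.35 for TMEM100, 1.07 for ZBTB16, 1.03 for RASGRF1, 0.95 for OR7A5, 0.88 for NNMT, 0.85 for MAOA, 0.81 for SYDE2, 0.72 for VCL, 0.62 for LGR5, 0.59 for CSRNP1, 0.59 for GREB1L and 0.53 for JADE1. In each of the 12, all 3 GRα arrays with dexamethasone lay above all 3 with vehicle, as they did in 6.67% of all genes. The same arrays form the interaction, so this is no separate support for it. Of the 12, 6 were called in every fit that left out 1 array. With 3 arrays in each group, no single array was tested for lying apart from its group.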

How the results depend on the processing

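No called interaction changed its sign under any alternative. The interaction count of 12 became 45 on unlogged values (40 positive, 5 negative), 19 with the eBayes trend, 22 with array weights (19 positive, 3 negative), 5 when only the groups compared were fitted, 5 at an adjusted p under 0.01 and 19 at 0.10; other normalizations, filters and gene units gave 12 to 17, with 1 negative among the 17 after a further quantile normalization and 1 among the 16 without the dimmest 25% of genes. With every probe set as its own unit the count was again 12, of which 9 were shared with the main fit. Without GRα vehicle B 12 positive and 1 negative were called. ZBTB16, OR7A5 and TMEM100 were called under every one of the alternatives that could be run for them, single arrays left out included. The letters A, B and C did not pair the arrays: same-letter correlations of deviations ran from −0.25 to 0.32 over 18 pairs, and 4 of 12 arrays were closest to their own letter. With the replicate block the count was 8 (JADE1, CSRNP1, LGR5 and GREB1L not called), and 4 with the replicate block within line, where MAOA and RASGRF1 had adjusted p-values of 0.0547 and 0.0599; the block gave 311, 35, 318 and 4 for dexamethasone in GRα cells, in control cells, their mean and the RU486-referenced contrast. Dexamethasone in GRα cells went from 372 to 77 and in control cells from 48 to 23 with only the groups compared, and in control cells to 148 with array weights and to 82 without GRα vehicle B, an alternative chosen after seeing the data. The RU486-referenced count of 5 became 8 with the trend, 17 with array weights and 7 without GRα vehicle B, again chosen after seeing the data. Leaving out single arrays of the groups in each contrast gave 6 to 15 interactions, 200 (without GRα dexamethasone B) to 601 (without GRα vehicle C) genes for dexamethasone in GRα cells, 17 to 23 in control cells, 261 to 400 for the mean and 0 to 6 for the RU486-referenced contrast. The causes were not tested.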
